A study of Mus musculus with 8 samples.

Results

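Regulators of G protein signaling (RGS) are described here through 8 RGS genes listed for T cells, Rgs1, Rgs2, Rgs3, Rgs10, Rgs14, Rgs16, Rgs18 and Rgs19. They were taken by name from the 38215 genes of the expression tables, by a rule that reads no measured value. Earlier results of these data were known when these genes, the lists and the tests were chosen. Of the 8 genes, 7 passed the expression filter and were tested. Rgs18, with 0 to 9 expected counts per library, was not. RNA had been sequenced from FoxP3+ regulatory T cells (Treg) of the bone marrow (BM-Treg, 4 libraries) and the spleen (SP-Treg, 4 libraries) of untreated B6.FoxP3-GFP mice aged 12 weeks, whose genotype the labels give as C57Bl/6. In these mice FoxP3+ cells carry a green fluorescent protein, by which they were sorted. By the labels, 3 of the BM-Treg libraries (replicates 1 to 3) are of batch 1 and female, and all other libraries, BM-Treg replicate 4 included, are of batch 3 and male. The study's methods describe the mice as female unless stated otherwise, from which the labels of batch 3 differ. The titles of the spleen libraries carry number ranges that overlap and are not explained, so that p-values measure the spread between these libraries, which may share animals.

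RGS proteins bind the active, GTP-loaded alpha subunit of a G protein and speed the hydrolysis of its GTP, which ends the signal that a G protein-coupled receptor has started. In lymphocytes they limit how strongly and how long cells respond to chemokines and other ligands of such receptors, and several RGS genes are themselves induced when T cells are activated. The proteins differ in the alpha subunits they act on and in the domains they carry beside the shared RGS domain.

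Expected counts summed to between 12427136 and 21921252 per library, and since cDNA was amplified without molecular identifiers, counting floors cover counting error only. The label of the sorted cells was checked with 10 Treg genes, whose summed level was 8019 to 9864 CPM (counts scaled to the size of the library) in BM-Treg and 8931 to 9585 CPM in SP-Treg (exact permutation p = 0.829). Foxp3 itself lay between 1257 and 2089 CPM in every library. Lists of other cell types stayed far below these levels but were not equal in the libraries. Markers of CD8 T and NK cells summed to 11.4 to 14.4 CPM in BM-Treg and 16.3 to 53.3 CPM in SP-Treg, B cell markers to 15.5 to 21.7 CPM and 16.9 to 167 CPM, and erythroid markers to 8.54 to 12.5 CPM and 2.10 to 160 CPM.

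Rgs2, Rgs14 and Rgs10 differed between the tissues. Rgs2 and Rgs14 were higher in BM-Treg, by 2.76-fold and 1.53-fold of the mean CPM, and Rgs10 was higher in SP-Treg, by 1.58-fold. No difference was detected for Rgs1, Rgs3, Rgs16 and Rgs19. These 3 calls among 7 tested genes (2 higher and 1 lower in BM-Treg, 42.9%) stand beside 8.75% of the 13397 genes tested that were called, 3.72% higher and 5.02% lower in BM-Treg. The libraries of the tissues did not overlap for the same 3 genes, against 15.9% of all genes tested, 8.26% higher and 7.67% lower in BM-Treg. The median log2 fold change (BM-Treg over SP-Treg, positive where BM-Treg is higher) was -0.06 over the 7 genes and -0.01 over all genes tested. In sorted bulk RNA, fewer cells that express a gene and less of its RNA per cell cannot be told apart.

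**Figure D1:**
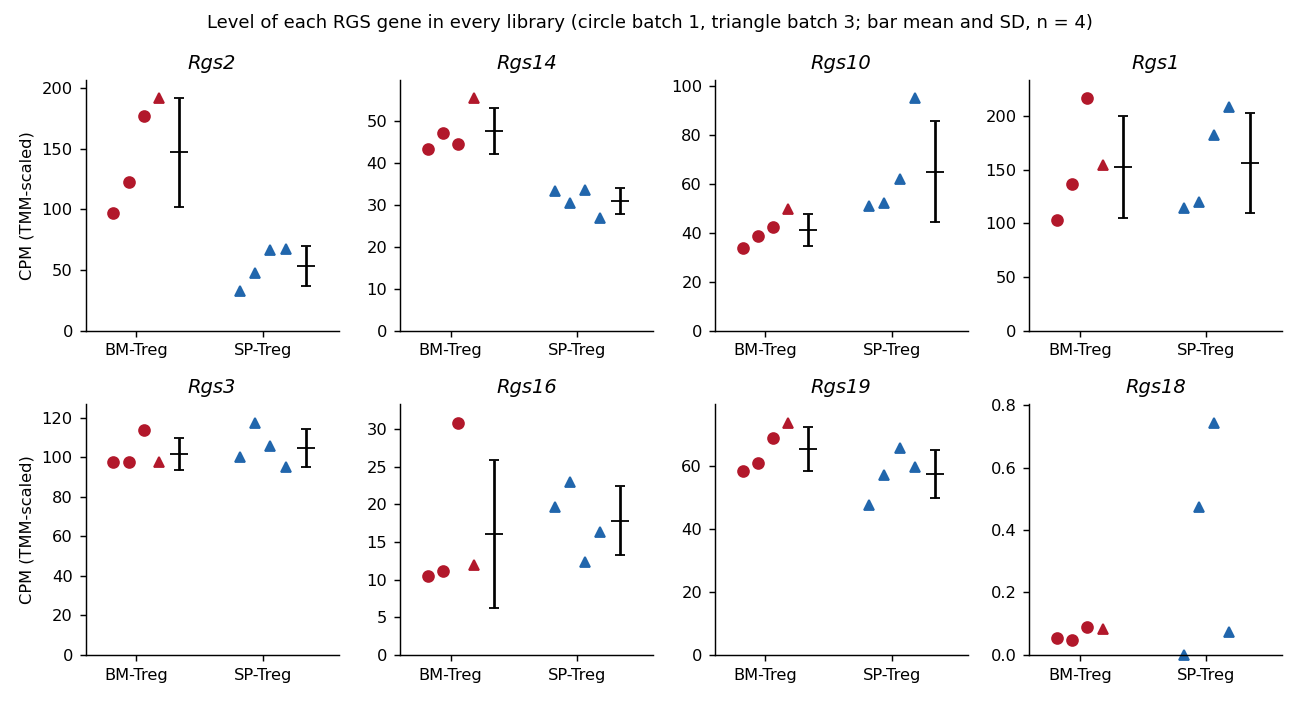
Each panel plots 1 RGS gene, with its level in CPM on the y axis and the tissue on the x axis. Circles are libraries of batch 1, triangles libraries of batch 3, and bars the mean and SD of 4 libraries (none for Rgs18, which lies near 0). The BM-Treg points lie above all SP-Treg points for Rgs2 and Rgs14 and below them for Rgs10, and the tissues overlap in the other panels.

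Rgs2 (ENSMUSG00000026360, minus strand, chr1:143999338-144004161, GRCm38) encodes a small RGS protein that acts mainly on alpha subunits of the Gq class. Its level was 96.6, 123, 177 and 191.5 CPM in BM-Treg replicates 1 to 4, a mean of 147 CPM ± 44.7 (SD, n = 4). In SP-Treg replicates 1 to 4 it was 32.2, 47.2, 66.4 and 67.3 CPM, a mean of 53.3 CPM ± 16.8 (SD, n = 4). No SP-Treg library reached the lowest BM-Treg library. The log2 fold change was 1.44 ± 0.29 (SE), with a 95% interval of 0.78 to 2.10 and an adjusted p of 0.0187 (quasi-likelihood test of edgeR, adjusted by Benjamini-Hochberg, as are all adjusted p-values below unless another test is named). An exact two-sided permutation test of log2 CPM gave 0.0286, the smallest p that 4 against 4 libraries allow. Within batch 3, BM-Treg replicate 4 was higher than the SP-Treg libraries by 1.85 on the log2 scale, and with batch as a term the log2 fold change was 1.83 (adjusted p = 0.0616). Both of these values rest on BM-Treg replicate 4, the only BM-Treg library of batch 3. The call was also lost without BM-Treg replicate 3 (adjusted p = 0.0520) and without SP-Treg replicate 2 (adjusted p = 0.0557), with log2 fold changes of 1.35 and 1.38.

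Because immediate early genes are known to rise with T cell activation and with cell handling, as RGS genes can, the Rgs2 values are given beside them. Among 8555 tested genes whose mean log2 CPM reached 3, those whose log2 CPM followed Rgs2 most closely over the 8 libraries were Fos (Pearson r = 0.99), which encodes an AP-1 transcription factor, and Dusp1 (r = 0.989), which encodes a phosphatase of MAP kinases. Fos was at 41.2, 50.6, 77.5 and 96.0 CPM in BM-Treg replicates 1 to 4 and at 12.002, 18.5, 32.2 and 33.7 CPM in SP-Treg replicates 1 to 4. The libraries stood in the same order for Fos as for Rgs2, both within a tissue and across the tissues. Fos did not pass the threshold between tissues (log2 fold change 1.43, adjusted p = 0.0712), and Dusp1 did (1.38, adjusted p = 0.0236). These correlations are a description over 8 libraries that also differ in tissue and batch.

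Of 21 immediate early genes, 20 were tested and 9 were called, with 5 higher and 4 lower in BM-Treg and a median log2 fold change of 0.21 (45.0%, beside 8.75% of all genes tested). The count was 2 with batch as a term, 3 without BM-Treg replicate 4, and 5 without BM-Treg replicate 2, BM-Treg replicate 3 or SP-Treg replicate 2. The 3 higher genes with the smallest adjusted p were Klf6 (log2 fold change 0.55, adjusted p = 0.0131), Junb (1.31, 0.0216) and Dusp1. The 3 lower ones were Egr2 (-2.41, 0.00131), Egr1 (-1.02, 0.00343) and Egr3 (-0.86, 0.0314), all of the EGR family of zinc finger transcription factors. The called genes of the list lay in both directions. Fos and Dusp1 were picked for their likeness to Rgs2 over the libraries of both tissues, so that their sharing its direction follows from that choice. The summed level of the list was 2207 to 3641 CPM in BM-Treg and 1760 to 2312 CPM in SP-Treg, with none of its genes at 0 in every library. The part of the list in the Rgs2 result was not tested.

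**Figure D2:**
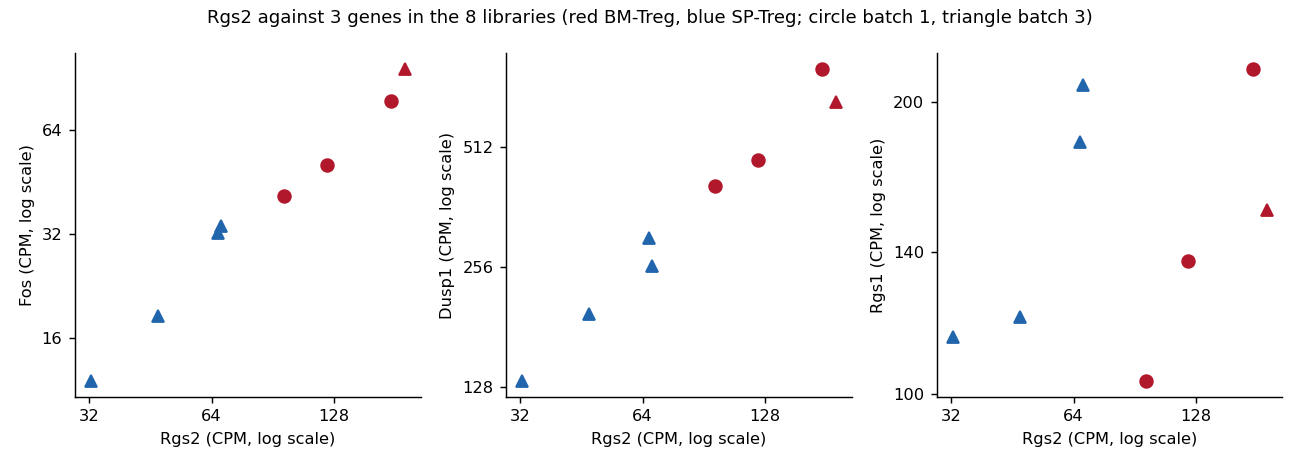
Each panel plots the level of Rgs2 in CPM (x axis, log scale) against Fos, Dusp1 or Rgs1 (y axis, log scale) in the 8 libraries, with BM-Treg in red, SP-Treg in blue, circles for batch 1 and triangles for batch 3. Fos and Dusp1, picked as the genes most like Rgs2 over these libraries, rise along 1 line through both tissues. Rgs1 spans the same range in both tissues at different levels of Rgs2.

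The 250 bases before the RefSeq start of Rgs2 (GRCm38.p6, chr1:144004150-144004399, minus strand) are shown because Rgs2 had the largest difference of the 7 tested genes and because genes induced by cAMP often carry a CRE, the site bound by CREB, near their start. Promoters of 5 of the 8 genes were found in the RefSeq table used. The window of Rgs10, the gene that differed in the other direction (chr7:128418173-128418422, minus strand), is set beside it. Capitals mark the CRE half-site TGACG on either strand.

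Rgs2: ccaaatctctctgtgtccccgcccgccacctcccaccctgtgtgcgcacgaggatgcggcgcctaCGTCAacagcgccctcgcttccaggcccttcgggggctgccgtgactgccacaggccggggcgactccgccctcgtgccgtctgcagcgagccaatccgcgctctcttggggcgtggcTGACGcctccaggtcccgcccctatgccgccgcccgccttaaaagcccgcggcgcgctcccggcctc

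Rgs10: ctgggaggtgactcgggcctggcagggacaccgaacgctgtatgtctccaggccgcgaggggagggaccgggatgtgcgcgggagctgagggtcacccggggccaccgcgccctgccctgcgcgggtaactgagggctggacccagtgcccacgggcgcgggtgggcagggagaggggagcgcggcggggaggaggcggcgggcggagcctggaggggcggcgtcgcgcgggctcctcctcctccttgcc

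The Rgs2 window held 2 CRE half-sites, beginning 185 and 67 bases before the start, the first of them on the opposite strand and so read as CGTCA. At least 1 such half-site was found in 17.8% of 32851 promoter windows of the same length. A full CRE (TGACGTCA, which contains the half-site on both strands), the AP-1 site TGANTCA, the core GGAAA bound by NFAT and the CArG box had no match in either window, searched on both strands, and were found in 1.55%, 6.75%, 55.6% and 1.47% of all windows. GC content was 72.4% in the Rgs2 window and 76.4% in that of Rgs10. These are matches of letters and describe no binding.

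Rgs1 (ENSMUSG00000026358, minus strand, chr1:144243972-144249242) encodes a small RGS protein that dampens chemokine receptor signaling in lymphocytes, and it is a gene often found raised in T cells that reside in tissues. It lies 239811 bp from Rgs2 on chromosome 1, with Rgs13 between them, and Rgs18 follows 503441 bp beyond Rgs1. Its level was 103, 137, 217 and 155 CPM in BM-Treg replicates 1 to 4 and 114, 120, 182 and 208 CPM in SP-Treg replicates 1 to 4. The tissues overlapped over nearly their whole range, unlike for its neighbour Rgs2. The fitted log2 fold change was -0.06 ± 0.26 (SE), with a 95% interval of -0.65 to 0.54 (adjusted p = 0.926). Differences within these bounds, in either direction, remain compatible with the data. The log2 ratio of Rgs2 to Rgs1 counts within a library, which no scaling between libraries can change, was -0.29 to 0.31 in BM-Treg and -1.83 to -1.35 in SP-Treg.

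Rgs13 had at most 3 expected counts in any library. The 7 genes tested within 500000 bp of Rgs2, Rgs1 among them, had adjusted p-values between 0.112 and 0.979. The tables list Rgs1 with an end, on its 3′ side, that falls 1676 bp short of the GENCODE M21 annotation. Of the 6 Rgs1 transcripts in the tables, 0 are among the 2 that GENCODE M21 annotates as protein coding, and the levels of Rgs1 relative to other genes are uncertain for that reason.

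Rgs16 (ENSMUSG00000026475, chr1:153740349-153745468, plus strand) encodes another small RGS protein, which acts on Gi and Gq alpha subunits and is induced in activated T cells. Its level was 10.5, 11.1, 30.8 and 11.995 CPM in BM-Treg replicates 1 to 4 and 19.7, 23.0, 12.3 and 16.4 CPM in SP-Treg replicates 1 to 4. BM-Treg replicate 3 was higher than all other libraries, while the other 3 BM-Treg libraries were lower than all SP-Treg libraries. The log2 fold change was -0.17 ± 0.36 (SE), with a 95% interval of -0.98 to 0.64 (adjusted p = 0.827). Without BM-Treg replicate 3 it was -0.68 (adjusted p = 0.0701), and in batch 3 alone it was -0.57.

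Rgs3 (ENSMUSG00000059810, chr4:62559847-62703018, plus strand) encodes an RGS protein with long and short isoforms that acts on Gi and Gq alpha subunits. It was the steadiest of the 8 genes, at 97.5, 97.5, 113 and 97.4 CPM in BM-Treg replicates 1 to 4 and 99.995, 117, 106 and 94.9 CPM in SP-Treg replicates 1 to 4. Its log2 fold change was -0.06 ± 0.10 (SE), with a 95% interval of -0.28 to 0.15 (adjusted p = 0.765), and on FPKM values it had the other sign (0.10). Neither sign was distinguishable from 0.

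Rgs18 (ENSMUSG00000026357, chr1:144752683-144775435, minus strand) encodes an RGS protein known from platelets and myeloid cells. It had 1, 1, 2 and 1 expected counts in BM-Treg replicates 1 to 4 and 0, 6, 9 and 1 in SP-Treg replicates 1 to 4. It was at or under the floor of 3 counts in 6 of 8 libraries, and exceeded it in SP-Treg replicates 2 and 3. Among 12 megakaryocyte and platelet markers, Tubb1, Treml1 and Gp6 were at 0 in every library, Pf4 was above 0 in SP-Treg replicate 2 alone, and Ppbp was at 0 in BM-Treg and highest in SP-Treg replicate 3 (0.331 CPM). Itga2b and Gp1ba were above 0 in all 8 libraries, at 0.578 to 2.60 CPM and 0.652 to 1.82 CPM, and the whole list summed to 2.16 to 4.28 CPM in BM-Treg and 1.67 to 4.05 CPM in SP-Treg. The 2 libraries with more Rgs18 counts had 70.3 and 160 CPM of erythroid markers, and SP-Treg replicate 4, with 1 count of Rgs18, had 95.5 CPM. Neutrophil markers, with 1 of 12 at 0 in every library (Ly6g), summed to 1.35 to 10.7 CPM in BM-Treg and to 0.217, 20.5, 9.67 and 7.47 CPM in SP-Treg replicates 1 to 4. The part of other cells in these counts was not tested.

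Rgs14 (ENSMUSG00000052087, plus strand, chr13:55369732-55384687) encodes a larger protein that joins its RGS domain to Ras-binding domains and to a GoLoco motif, which holds inactive Gi alpha subunits. Its level was 43.3, 47.0, 44.5 and 55.4 CPM in BM-Treg replicates 1 to 4, a mean of 47.5 CPM ± 5.44 (SD, n = 4). In SP-Treg replicates 1 to 4 it was 33.2, 30.4, 33.5 and 26.8 CPM, a mean of 31.0 CPM ± 3.10 (SD, n = 4). The tissues did not overlap and the libraries of each tissue lay close together. The log2 fold change was 0.60 ± 0.12 (SE), with a 95% interval of 0.34 to 0.86 (adjusted p = 0.00714), and the exact permutation test gave 0.0286. Within batch 3 the difference was 0.84, and with batch as a term it was 0.82 (adjusted p = 0.0275). Both of these values rest on BM-Treg replicate 4, the only BM-Treg library of batch 3, and are not separate checks. Rgs14 was called in all 18 alternative fits with a test, among them the 8 that each left out a library.

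Rgs10 (ENSMUSG00000030844, minus strand, chr7:128373621-128418758) encodes a short protein that is little more than an RGS domain and acts on Gi alpha subunits. Its level was 33.8, 38.7, 42.5 and 49.7 CPM in BM-Treg replicates 1 to 4, a mean of 41.2 CPM ± 6.70 (SD, n = 4). In SP-Treg replicates 1 to 4 it was 51.1, 52.2, 61.9 and 95.04 CPM, a mean of 65.1 CPM ± 20.6 (SD, n = 4). The tissues did not overlap, but the highest BM-Treg library, which is the one of batch 3, lay next to the lowest SP-Treg library, and SP-Treg replicate 4 was well above the rest. Its log2 fold change was -0.68 ± 0.20 (SE), with a 95% interval of -1.11 to -0.26 and an adjusted p of 0.0496, close to the threshold. Without SP-Treg replicate 4 it was -0.44 (adjusted p = 0.0752), within batch 3 it was -0.39, and with batch as a term it was -0.41 (adjusted p = 0.521). The value within batch 3 and that with batch as a term both rest on BM-Treg replicate 4. Rgs10 was called in 8 of 18 alternative fits and in 3 of the 8 that left out a library.

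The genes closest to Rgs10 over the libraries were Rpl5 (r = 0.982), which encodes a ribosomal protein, and Eef1b2 (r = 0.979), which encodes a subunit of the translation elongation factor. For Rgs14 they were Nubp1 (r = 0.979) and Tprgl (r = 0.968). None of these 4 genes was called between the tissues (adjusted p between 0.0563 and 0.187). The summed markers of CD8 T and NK cells did not pass the test over 9 marker lists (exact permutation p = 0.0286, adjusted p = 0.257, the smallest that a single separated list could reach), with no overlap between the tissues. Of 3 tested markers, Cd8a and Gzma were called lower in BM-Treg, Cd8b1 was not (adjusted p = 0.210), and 0 of 8 were at 0 in every library. They were highest in SP-Treg replicate 2 (53.3 CPM), where Rgs10 was at 52.2 CPM, and lower in SP-Treg replicate 4 (23.6 CPM), where Rgs10 was highest, and their part in the Rgs10 result was not tested.

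Rgs19 (ENSMUSG00000002458, chr2:181688419-181693977, minus strand) encodes an RGS protein that acts on Gi alpha subunits and is anchored to membranes by a string of cysteines. Its level was 58.6, 61.0, 68.8 and 73.8 CPM in BM-Treg replicates 1 to 4 and 47.6, 57.3, 65.9 and 59.6 CPM in SP-Treg replicates 1 to 4. The ranges of the tissues overlapped. On the log2 scale the fold change was 0.17 ± 0.12 (SE), with a 95% interval of -0.10 to 0.43 (adjusted p = 0.453), and it was 0.36 within batch 3.

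**Figure D3:**
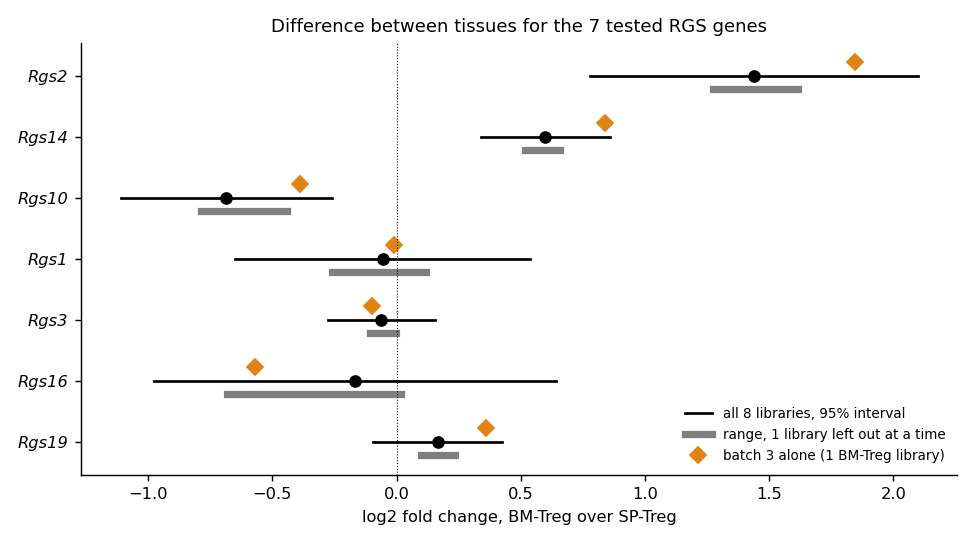
For each of the 7 tested RGS genes the log2 fold change of BM-Treg over SP-Treg (x axis) is plotted as a black point with its 95% interval, beside the range over fits that left out 1 library (gray bar) and the value within batch 3 (orange diamond). The batch 3 values rest on BM-Treg replicate 4 as the only BM-Treg library. The intervals of Rgs2, Rgs14 and Rgs10 lie off 0, and the batch 3 values of Rgs2 and Rgs14 lie farther from 0 than their points, whereas that of Rgs10 lies nearer.

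Levels were compared between genes per transcript length, as FPKM (counts set relative to transcript length and depth). In BM-Treg, Rgs2 had 152 FPKM ± 32.3 (SD, n = 4) and was above Rgs1, at 121 FPKM ± 35.8, in 4 of 4 libraries, although their ranges overlapped. Rgs19 (63.8 FPKM), Rgs10 (54.9 FPKM) and Rgs3 (54.2 FPKM) followed with ranges that overlapped from each to the next, and below them stood Rgs14 (23.4 FPKM), Rgs16 (7.23 FPKM) and Rgs18 (0.035 FPKM), each apart from the one above. In SP-Treg the order was Rgs1 (125 FPKM ± 36.4), Rgs10 (82.9 FPKM ± 23.0), Rgs2 (55.1 FPKM ± 14.1), Rgs19 (53.8 FPKM), Rgs3 (50.4 FPKM), Rgs14 (15.3 FPKM), Rgs16 (7.79 FPKM) and Rgs18 (0.158 FPKM). The first 5 of these overlapped from each to the next. The place of Rgs1 in both orders is uncertain for the reason given above, and by counts Rgs1 was above Rgs2 in BM-Treg replicates 1 to 3.

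Rgs2 made up 29.7% to 33.9% of the summed FPKM of the 8 genes in the BM-Treg libraries and 11.1% to 15.4% in the SP-Treg libraries. Rgs10 made up 9.77% to 12.6% and 18.2% to 25.0%. Shares of Rgs1, Rgs3, Rgs14, Rgs16 and Rgs19 overlapped between the tissues. Since shares of a sum depend on each other, the share of Rgs14 overlapped although its own level did not. The summed level was 388 to 572 FPKM in BM-Treg and 330 to 467 FPKM in SP-Treg. All these shares rest on a sum that includes Rgs1, whose level relative to other genes is uncertain for the reason given above.

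**Figure D4:**
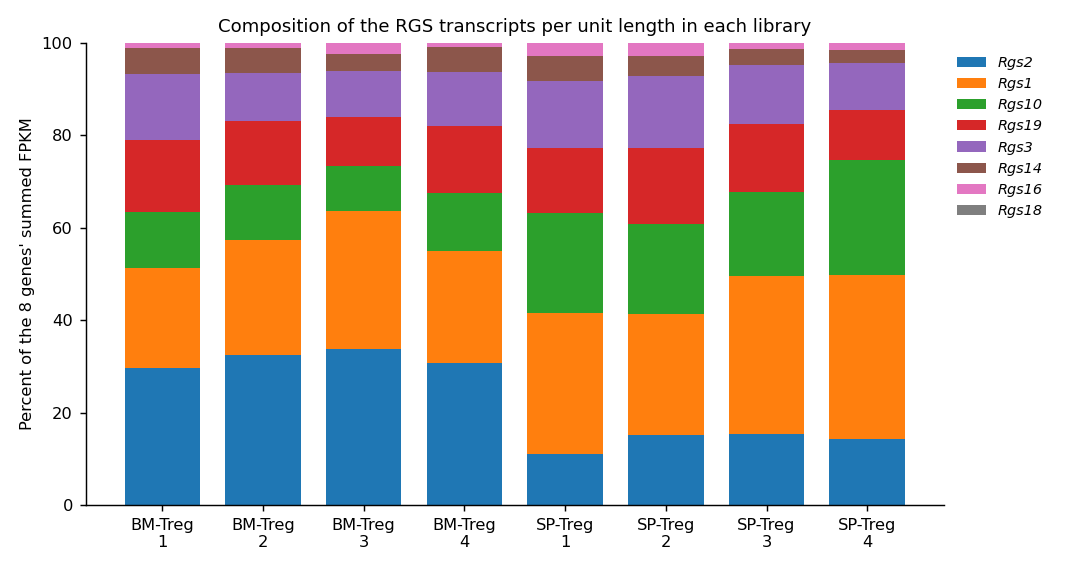
Stacked bars give the percent of the summed FPKM of the 8 RGS genes (y axis) that each gene took in each library (x axis). The sum includes Rgs1, whose level relative to other genes is uncertain. The Rgs2 share is 29.7% or more in the BM-Treg bars and 15.4% or less in the SP-Treg bars, while the Rgs10 share is wider in the SP-Treg bars, and Rgs18 is too small to be seen.

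The deposited transcript estimates show which annotated forms took the counts, with the limit that shares between overlapping transcripts are uncertain estimates. Rgs10 was nearly all 1 protein coding transcript, Rgs10-201, which held 93.9% ± 0.65 (SD, n = 4) in BM-Treg and 94.9% ± 2.92 in SP-Treg. Protein coding transcripts took 65.1% ± 7.90 of the Rgs2 counts in BM-Treg and 62.2% ± 1.63 in SP-Treg, so that the tissues differed in the amount of Rgs2 with no difference in form detected. The protein coding Rgs14-201 took 63.6% ± 17.6 in BM-Treg and 50.3% ± 13.0 in SP-Treg (exact permutation p = 0.2), the rest being annotated as retaining an intron. Of the Rgs3 counts, 81.4% ± 8.85 in BM-Treg and 84.2% ± 5.67 in SP-Treg were assigned to transcripts annotated as retained introns. Over 14 transcripts compared, 0 were called between the tissues by exact two-sided permutation tests (smallest raw p 0.0857, smallest adjusted p 0.467, and 0 with a raw p under 0.05). With 4 libraries per tissue the smallest possible raw p of this test is 0.0286. A single separated transcript could therefore not pass after adjustment over 14, and the 0 calls do not show equal shares.

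A list of other genes named for RGS held 14 genes in the tables, among them Rgs7bp and Rgs9bp, which encode binding partners of RGS proteins. Of these 14 genes, 4 were tested and 1 was called (25.0%, beside 8.75% of all genes tested). The called gene was Rgs11, which encodes an RGS protein of the group that pairs with the beta subunit Gnb5. Its level was 5.41 to 7.73 CPM in BM-Treg and 2.31 to 3.97 CPM in SP-Treg (log2 fold change 1.14, adjusted p = 0.0103), and it was not called with batch as a term.

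The other parts of the pathway were read from lists of alpha subunits, beta and gamma subunits, receptors, and receptor kinases with further regulators. A list of effectors, which also holds enzymes further downstream, and the other RGS genes were counted in. Of 124 genes in the tables, 98 were tested and 24 were called (24.5%), 14 higher and 10 lower in BM-Treg, with a median log2 fold change of 0.11. Of all genes tested, 8.75% were called, 3.72% higher and 5.02% lower. With batch as a term 6 were called, and without BM-Treg replicate 2 there were 14.

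Among 11 tested alpha subunits, the targets of RGS proteins, Gna15 was higher in BM-Treg (20.5 CPM ± 3.604 against 9.88 CPM ± 2.57, log2 fold change 1.03, adjusted p = 0.00458) and Gna14 was lower (1.98 CPM ± 0.68 against 6.92 CPM ± 1.499, log2 fold change -1.81, adjusted p = 0.00194). Both encode alpha subunits of the Gq class, on which Rgs2 acts. These 2 of 11 (18.2%, beside 8.75% of all genes tested) were also 2 with batch as a term, and 4 were called without SP-Treg replicate 4. Of 10 tested beta and gamma subunits, which the alpha subunit releases when active, Gng2 (log2 fold change 0.65, adjusted p = 0.00282) and Gnb2 (0.46, 0.0396) were higher and Gngt2 (-0.86, 0.0463) was lower (3 of 10, beside the same 8.75%). The count was 1 with batch as a term and 1 without BM-Treg replicate 2, 3 or 4 or SP-Treg replicate 3.

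Of 29 tested receptors, 5 were higher and 4 lower in BM-Treg (31.0%, beside 8.75% of all genes tested), and 2 were called with batch as a term. The 3 higher with the smallest adjusted p were Ccr3, a chemokine receptor for eotaxins (log2 fold change 1.21, adjusted p = 0.00234), S1pr4, a receptor for sphingosine 1-phosphate (0.59, 0.0132), and Ptgir, the prostacyclin receptor (1.41, 0.0140). The 3 lower were Cxcr5, the receptor for CXCL13 (-1.54, 0.000176), Ptger2, a receptor for prostaglandin E2 (-0.72, 0.00749), and Gpr183, a receptor for oxysterols (-0.66, 0.01003). Receptors thus moved in both directions, as the RGS genes did.

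Of 17 tested receptor kinases, arrestins and other regulators, 2 were called and both were higher in BM-Treg, among them Arrb1, which encodes a beta-arrestin (88.0 CPM ± 4.32 against 62.1 CPM ± 15.2, log2 fold change 0.48, adjusted p = 0.0479). This share of 11.8% is near the 8.75% of all genes tested, and the count was 0 with batch as a term and 1 without BM-Treg replicate 1, 2, 3 or 4 or SP-Treg replicate 2 or 3. Of 27 tested genes of the effector list, 3 were higher and 4 lower (25.9%, beside the same 8.75%). The list also holds enzymes that are not direct targets of G proteins, among them soluble guanylyl cyclase and the phosphodiesterases named below. Its count is therefore not one of direct effectors alone. With batch as a term 1 was called, without BM-Treg replicate 1 or 2 there were 3, and without BM-Treg replicate 3 or SP-Treg replicate 3 there were 4. The higher ones were Pde4a, a cAMP phosphodiesterase (log2 fold change 0.84, adjusted p = 0.0182), Adcy7, an adenylyl cyclase (0.36, 0.0360), and Plcb3, a phospholipase C that Gq subunits activate (0.49, 0.0449). The 3 lower with the smallest adjusted p were Gucy1a3, a subunit of soluble guanylyl cyclase (-2.70, 0.00161), and the phosphodiesterases Pde7a (-0.66, 0.00314) and Pde4b (-0.41, 0.0288).

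**Figure D5:**
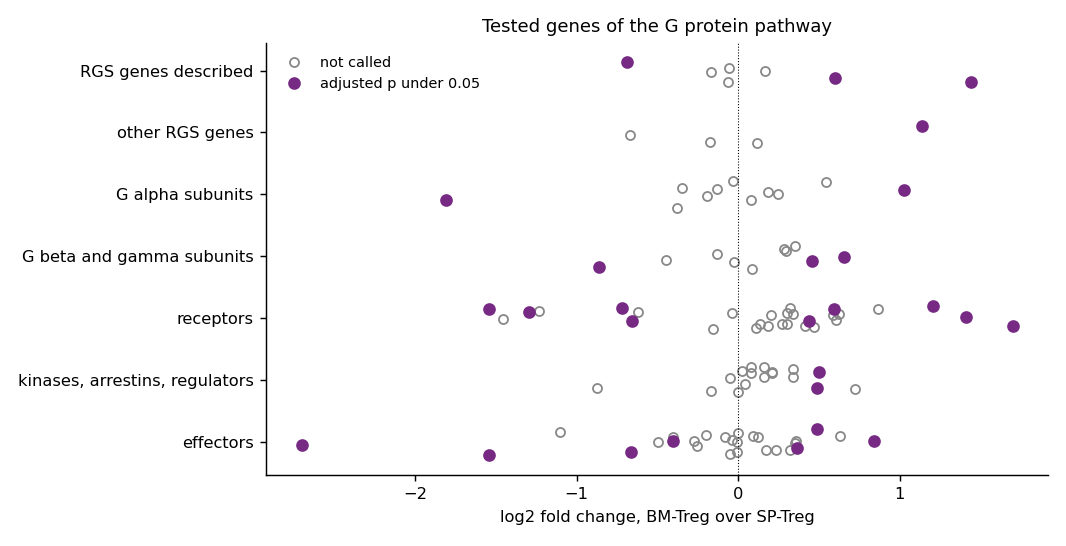
Each point is a tested gene, placed by its log2 fold change of BM-Treg over SP-Treg (x axis) in the row of its list (y axis), filled where the adjusted p is under 0.05. Filled points lie on both sides of 0 for the 7 RGS genes described, the alpha, beta and gamma subunits, the receptors and the effectors, and above 0 for Rgs11 and the 2 called regulators.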

How the data were processed

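The authors deposited expected counts (estimated reads per gene and transcript, without normalization between libraries) and FPKM values (counts per transcript length and depth). The submitters' processing notes name cutadapt 1.9, STAR 2.5.2a, RSEM 1.2.30 and GRCm38. Reads were single-end, of 80 nt, from RNA amplified by the single primer isothermal method, and the annotation release is not given in the sources used here. Every column of a library was matched to its sample by name.

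Expected counts were rounded, filtered by edgeR's default on the groups, scaled by TMM and tested with edgeR 4.0.16 (quasi-likelihood test, robust, no covariate, 4 BM-Treg against 4 SP-Treg libraries, Benjamini-Hochberg adjustment over all 13397 genes tested, threshold 0.05) in R 4.3.3. The study's methods name no test for the RNAseq. CPM values use TMM library sizes and log2 CPM a prior count of 2. Levels between genes were compared as FPKM. Transcript shares and summed markers were compared by exact permutation tests (scipy 1.17.1), and the edgeR test was tried on simulated data. Alternatives used DESeq2 1.42.0 and limma 3.58.1, other filters and thresholds, a batch term, a replicate block, each library left out in turn and, chosen after seeing the data, libraries thinned to the smallest total. The RGS genes, the lists and the tests were chosen with earlier results of these data known. From each pathway list, all called genes were named, or the 3 higher and 3 lower with the smallest adjusted p where more than 6 were called. Of the genes this rule gives, 1 is not reported here. For likeness, the 2 genes with the highest Pearson r to each called RGS gene were named.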

Additional observations from a re-analysis of the deposited data

Results flagged for a closer look

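BM-Treg replicate 3 stood far from the other 3 BM-Treg libraries for 2 of the RGS genes, by Dixon's test at the 95% level. Rgs3 was at 113.5 CPM in that library and between 97.4 and 97.5 CPM in the others. Rgs16 was at 30.84 CPM there and between 10.5 and 11.995 CPM in the others. The Rgs3 value lay within the range of the SP-Treg libraries, and the Rgs16 value lay above theirs. Of 14 groups tested (7 genes in 2 tissues) 2 showed such a library, and chance alone gives about 1 in 20.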

How the results depend on the processing

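Rgs14 was called in all 18 alternative fits, Rgs2 in 14 and Rgs10 in 8, each with its direction kept, and Rgs1, Rgs3, Rgs16 and Rgs19 in none. Of the 7 RGS genes, 3 were called as reported, 1 with no filter beyond 1 count in total, 1 with a batch term, 1 at an adjusted p threshold of 0.01, 1 with a log2 fold change of 1 or more in size, and 1 to 3 with a library left out (1 without BM-Treg replicate 3). With no filter, the adjusted p was 0.0646 for Rgs2 and 0.0672 for Rgs10. Rgs10 also missed the threshold on log2(FPKM + 1) (0.0767) and in thinned libraries (0.0513). Of the pathway genes, 24 were called as reported, 15 on log2(FPKM + 1), 14 on log2(FPKM + 0.1), 6 with a batch term, 8 at a threshold of 0.01, 10 with the minimum fold change, and 14 to 22 with a library left out. Of all genes the counts were 1172, 765, 728, 258, 427, 310, and 690 to 1048 in the same order. The sign turned for Rgs1 (-0.26 to 0.12) and Rgs16 (-0.68 to 0.016) with a library left out, and for Rgs3 on both FPKM scales (0.10), with no call in any. The cause of these changes was not tested.

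With the replicate number as a replicate block, 3 RGS genes, 18 pathway genes (1 of the beta and gamma subunits and 3 effectors among them) and 948 genes in all were called. Over all genes tested, deviations of same-numbered libraries correlated at -0.11, 0.06, -0.18 and 0.04. Pairing by number was thus not seen over all genes, which does not settle it for single genes. With the block, the SE of the log2 fold change was 0.10 for Rgs2, 0.12 for Rgs10 and 0.14 for Rgs14. Without it, the SE was 0.29, 0.20 and 0.12 in the same order. For transcript shares and marker lists, the number of exact tests left almost no room for a call with 4 libraries per tissue, so that their 0 calls say nothing about stability. Batch and sex cannot be told apart, batch 1 holds BM-Treg only, and a batch term rests on 1 BM-Treg library. For Rgs1 and Rgs16 the 95% intervals, -0.65 to 0.54 and -0.98 to 0.64, give the log2 differences that remain compatible with 4 libraries per tissue.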

Other observations

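Of the 14 other genes named for RGS in the tables, 6 had an expected count of 0 in every library: Rgs4, Rgs6, Rgs7, Rgs17, Rgs22 and Rgs7bp, which encodes a binding partner of the RGS proteins of the Rgs7 group. A count of 0 allows a level of up to 0.135 to 0.252 CPM, depending on the library. Rgs5, Rgs8, Rgs13 and Rgs9bp, the last of which also encodes a binding partner, had between 3 and 53 expected counts over all 8 libraries together and were not tested. Rgs9, which belongs with Rgs11 to the group that pairs with Gnb5, was at 1.41 to 4.61 CPM (log2 fold change -0.18, adjusted p = 0.822). Rgs12, which carries a GoLoco motif as Rgs14 does, was at 3.30 to 6.92 CPM (log2 fold change 0.12, adjusted p = 0.830), and Rgs20, a relative of Rgs19, was at 0.795 to 2.65 CPM (log2 fold change -0.67, adjusted p = 0.390).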
